A study of Rattus norvegicus with 9 samples.

Results

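The genes described here encode the chains of the collagens, and were taken as the rows of the deposited table whose gene name is Col, a number, the letter a and a number, with a mean of at least 0.1 FPKM over the 9 libraries. FPKM is a level scaled for transcript length and sequencing depth. Of the 22833 genes in the table, 41 had such a name and 36 of these reached the minimum. The study addressed the lung transcriptome after ischemia and reperfusion, and what ischemic post-conditioning changes in it. All rats were male Sprague-Dawley rats of 8 weeks, anesthetized, heparinized, ventilated through a tracheotomy and opened at the left chest. In the I-post C group, the hilum of the left lung was closed with a clamp for 30 min, 3 cycles followed in which 30 s of renewed ischemia alternated with 30 s of flow, and reperfusion then lasted 2 h. In the IR group the same 30 min of ischemia were followed by 2 h of reperfusion without the cycles. In the Sham group the hilum was freed but not clamped. Each group had 6 rats and gave 3 libraries from lung, numbered 1 to 3 in the labels. The sources used here do not say which rats these came from, so the p-values measure the spread between libraries.

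Collagens are the main structural proteins of the extracellular matrix. Each is a triple helix of chains that may be products of one gene or of several, and the classes differ in what they build. Fibrillar collagens form the fibrils that carry tension in vessel walls, airways and alveolar septa. Type IV collagens form the sheet of the basement membrane, which in the alveolus lies between epithelium and endothelium. Beaded filament, fibril-associated (FACIT), transmembrane and multiplexin collagens link these to cells and to each other. In these libraries the lung markers were present throughout, with 26511 to 57875 FPKM in the sum of 5 epithelial markers such as Sftpc, the gene of surfactant protein C.

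The type IV genes lie in pairs, head to head on opposite strands, and share the stretch between their starts. Col4a1 was the only collagen gene called by any fit used here, and the promoter windows of Col4a1 and Col4a2 and of the next pair, Col4a3 and Col4a4, are shown for that reason. Each window runs from 250 bases before to 50 bases after the start that RefSeq gives in the GRCr8 build, 5′ to 3′ on the strand of the gene. Capitals mark the CCAAT box, the GC box with the letters GGGCGG and the TATA box with the letters TATAAA, each searched on both strands, so that the reverse complement of a motif is in capitals as well.
Col4a1, chr16:84885347-84885646, plus strand: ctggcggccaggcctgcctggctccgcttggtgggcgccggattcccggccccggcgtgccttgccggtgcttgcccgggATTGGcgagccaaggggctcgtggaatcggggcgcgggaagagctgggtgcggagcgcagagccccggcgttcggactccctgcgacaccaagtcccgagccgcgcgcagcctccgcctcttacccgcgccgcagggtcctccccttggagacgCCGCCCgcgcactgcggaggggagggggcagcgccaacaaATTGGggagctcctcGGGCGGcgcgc
Col4a2, chr16:84885471-84885770, minus strand: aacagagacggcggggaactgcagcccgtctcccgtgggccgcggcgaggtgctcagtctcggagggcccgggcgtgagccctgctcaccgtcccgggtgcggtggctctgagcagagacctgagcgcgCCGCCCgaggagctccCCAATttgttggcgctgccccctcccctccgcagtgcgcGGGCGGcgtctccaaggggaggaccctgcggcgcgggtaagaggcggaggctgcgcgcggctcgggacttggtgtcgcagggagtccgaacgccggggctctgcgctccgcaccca
Col4a3, chr9:91323740-91324039, plus strand: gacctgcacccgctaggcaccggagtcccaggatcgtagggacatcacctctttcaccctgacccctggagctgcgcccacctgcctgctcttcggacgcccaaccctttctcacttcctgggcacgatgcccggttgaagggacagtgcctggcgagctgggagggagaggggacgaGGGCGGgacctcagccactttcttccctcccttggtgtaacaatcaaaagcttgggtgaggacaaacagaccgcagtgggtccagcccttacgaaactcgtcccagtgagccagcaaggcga
Col4a4, chr9:91323528-91323827, minus strand: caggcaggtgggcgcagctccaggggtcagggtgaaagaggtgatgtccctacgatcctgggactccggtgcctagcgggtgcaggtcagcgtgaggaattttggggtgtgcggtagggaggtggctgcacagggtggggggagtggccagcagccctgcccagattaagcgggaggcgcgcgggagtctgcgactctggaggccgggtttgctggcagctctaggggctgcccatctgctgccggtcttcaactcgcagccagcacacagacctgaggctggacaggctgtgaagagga

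The annotated starts of Col4a1 and Col4a2 were 77 bases apart, and their windows shared 176 bases, so a motif in that stretch was counted for both genes. Those of Col4a3 and Col4a4 were 413 bases apart, with 88 bases shared, and those of Col4a5 and Col4a6 on chromosome X were 1415 bases apart with none shared. The Col4a1 window was 75% G and C and held 2 CCAAT boxes and 2 GC boxes, and the Col4a2 window was 73.7% G and C with 1 CCAAT box and 2 GC boxes. The Col4a3 window held 1 GC box, and no motif searched was found in the Col4a4 window. RefSeq windows were matched for 29 of the 36 genes. Among these 29 windows 19 (65.5%) held a GC box, 8 (27.6%) a CCAAT box and 2 (6.90%) a TATA box. Of all 33469 rat windows 33.1%, 37.5% and 14.2% held these motifs. For the collagens 1 window was taken per gene, whereas all rat windows were counted without that limit, so the sets are not alike. A motif match is a description of letters and not a binding site.

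Summed over the 36 genes, collagen transcripts took 0.311, 0.352 and 0.283% of all FPKM in I-post C 1, 2 and 3, 0.207, 0.236 and 0.336% in IR 1, 2 and 3, and 0.253, 0.197 and 0.131% in Sham 1, 2 and 3. These sums were 1597, 1775 and 1497 FPKM in I-post C libraries, 1027, 1236 and 1829 FPKM in IR libraries and 1232, 1077 and 799 FPKM in Sham libraries. By either measure the I-post C libraries were all above the Sham libraries. IR 3 had the highest summed FPKM and I-post C 2 the highest share. In bulk lung RNA, fewer cells of a type and less RNA per cell cannot be told apart. Over all libraries, fibrillar genes held 44.8% of collagen FPKM, type IV genes 27.0%, beaded filament genes 19.9%, transmembrane genes 3.56%, FACIT genes 2.76%, multiplexins 1.50%, and the rest, Col7a1, Col8a1, Col8a2 and Col26a1, less than any of these. Col3a1 alone, the chain of type III collagen in distensible tissue, held 27.0% (Sham 3) to 52.7% (Sham 2). Col1a2, Col6a3, Col21a1 and Col25a1 had no entry under these names, so all these sums and shares leave them out.

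**Figure D1:**
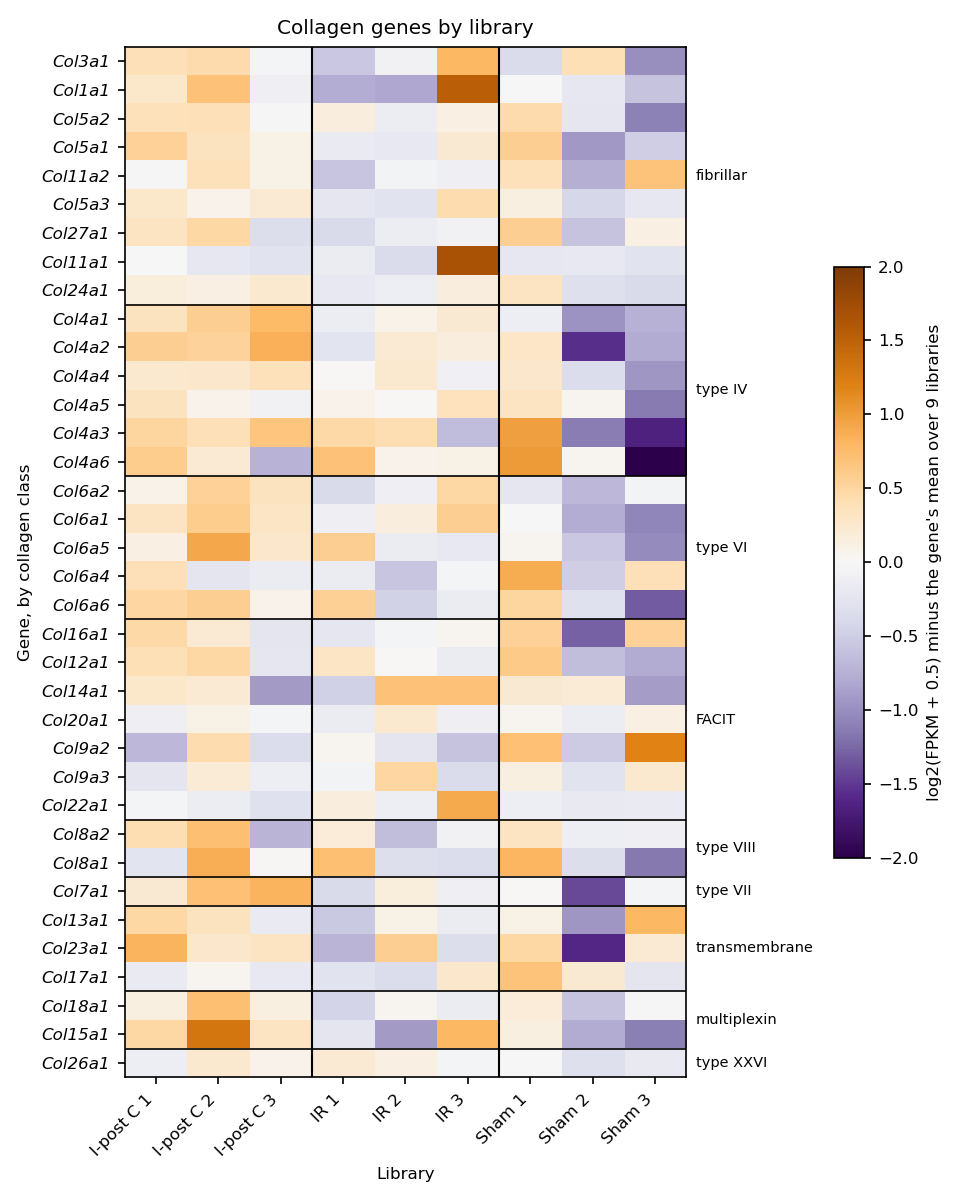
Each row is 1 of the 36 collagen genes, grouped by class, and each column is 1 library. Colour is log2(FPKM + 0.5) minus the mean of that gene over the 9 libraries. Sham 2 and Sham 3 were each the lowest library for 13 genes, and single dark cells mark Col1a1 and Col11a1 in IR 3.

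Sham 2 and Sham 3 were each the lowest of the 9 libraries for 13 of the 36 genes, while Sham 1 was the highest for 10, I-post C 2 for 9 and IR 3 for 7. The median deviation of the 36 genes from their own means, in log2(FPKM + 0.5), was 0.30, 0.37 and -0.00 in I-post C 1, 2 and 3, -0.15, -0.06 and 0.00 in IR 1, 2 and 3, and 0.28, -0.45 and -0.33 in Sham 1, 2 and 3. Sham 1 was thus on the side of I-post C 1 and 2, away from the other 2 Sham libraries.

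Libraries also differed by transcript length, and collagen transcripts are long. Counts scaled to the library total and divided by FPKM give an implied length in kilobases, and all tested genes were split by it into 5 bins of 3650 genes. The longest bin began at 4.09 kb and held 30 of the 36 collagen genes (83.3%). In that bin, the median deviation over all its genes was 0.12, 0.19 and -0.00 in I-post C 1, 2 and 3, 0.20, -0.02 and -0.24 in IR 1, 2 and 3, and 0.35, -0.17 and -0.45 in Sham 1, 2 and 3. Sham 1 was high and Sham 3 low among long genes in general. IR 1 stood the other way, at 0.20 for long genes and -0.15 for the collagens.

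**Figure D2:**
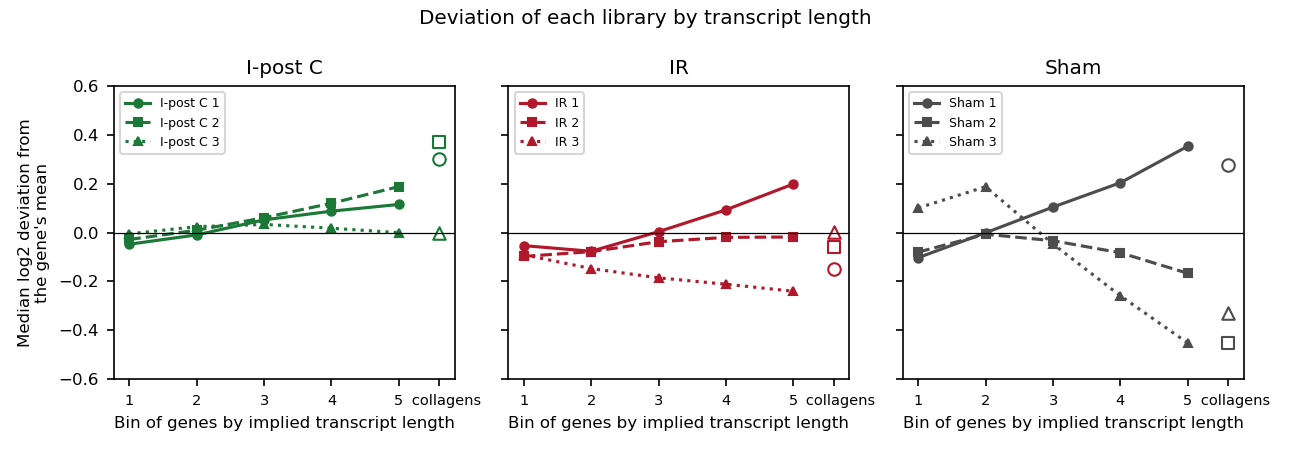
Lines give, for each library, the median log2 deviation of all tested genes from their own means (vertical axis) by bin of implied transcript length (horizontal axis, 1 shortest, 5 longest). Open symbols at the right give the median of the 36 collagen genes in the same library. In the longest bin Sham 1 lies at 0.35 and Sham 3 at -0.45, and the collagens of these libraries at 0.28 and -0.33.

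In edgeR's quasi-likelihood test over all 9 libraries, with called meaning an adjusted p under 0.05 and a log2FC (log2 fold change) of at least 1 in size, 0 of the 36 collagen genes were called in I-post C against Sham, 0 in I-post C against IR and 0 in IR against Sham. Over all 18250 genes tested, 0%, 0% and 0.137% were called in these comparisons. DESeq2 called 1 member, Col4a1 in I-post C against Sham, where 0.765% of all genes it tested were called with all 9 libraries in the fit and 0.629% with the 2 groups alone. limma on log2(FPKM + 0.5) called 0 members in each comparison.

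Before adjustment, edgeR's p was under 0.05 for 7 members in I-post C against Sham, all of them higher in I-post C, where 3.38% of all genes were higher and 3.1% lower at that p. They were Col4a1, Col4a2, Col4a4, Col6a1, Col6a5, Col7a1 and Col15a1. In IR against Sham it was under 0.05 for 3 members, Col4a1, Col6a1 and Col11a1, all higher in IR, where 5.69% of all genes were higher and 5.85% lower. In I-post C against IR it was under 0.05 for Col22a1 alone, lower in I-post C, where 1.08% of all genes were higher and 1.8% lower. These counts moved with single libraries, as did those over all genes. Without Sham 1 it was 13 in I-post C against Sham, all higher, where 10.4% of all genes were higher and 11% lower. In IR against Sham it was then 10, all higher, where 11.9% of all genes were higher and 11.5% lower. Without I-post C 2, 3 members were higher and 1 lower in I-post C against Sham, beside 2.51% and 1.18% of all genes, and without Sham 2, 4 were higher and 2 lower, beside 2.75% and 3.88%. In IR against Sham the direction was mixed without Sham 2, with 2 members higher and 3 lower beside 4.85% and 7.01% of all genes. It was mixed as well without IR 3, with 1 higher and 2 lower beside 3.79% and 3.76%. Without IR 2, 5 members were higher and 0 lower in IR against Sham, beside 4.64% and 3.54%. Without IR 3, Col1a1 and Col15a1 were the members under that p in I-post C against IR, both higher, beside 0.953% of all genes higher and 0.69% lower.

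Groups that did not overlap in FPKM were counted as well. All 3 I-post C libraries were above all 3 Sham libraries for 7 members (19.4%), Col4a1, Col4a2, Col6a1, Col6a2, Col6a5, Col7a1 and Col15a1, against 5.62% of all genes, and below them for 0 members, against 3.85%. All 3 I-post C libraries were above all 3 IR libraries for 6 members (16.7%), Col4a1, Col4a2, Col4a4, Col7a1, Col11a2 and Col18a1, against 10.3% of all genes, and below them for 0, against 2.76%. Between IR and Sham, 0 members were separated in either direction, where 5.65% of all genes were higher and 8.66% lower in every IR library. FPKM sets I-post C higher against IR than the scaling of edgeR does. The all-gene median log2FC in I-post C against IR was 0.10 with limma on log2(FPKM + 0.5) and -0.01 with edgeR. A gene separated in FPKM may therefore overlap on the scale of edgeR, where separation was not counted.

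The median log2FC of the 36 members was 0.39 in I-post C against Sham, with 25 above 0, where the median of all genes was -0.03 and that of the longest bin 0.11. In I-post C against IR it was 0.14, with 25 above 0, beside -0.01 for all genes and 0.01 for the longest bin. In IR against Sham it was 0.34, with 28 above 0, beside -0.03 and 0.10. Those 2 comparisons with Sham share the Sham libraries. With the trend over length taken out of each library, the medians were 0.21 in I-post C against Sham, 0.09 in I-post C against IR and 0.28 in IR against Sham. In that fit 5 members, all of them among the 7 named above, were under an unadjusted p of 0.05 and higher in I-post C against Sham, where 3.27% of all genes were higher and 3.63% lower. In IR against Sham the median was 0.63 without Sham 1, beside 0.32 for the longest bin, and 0.11 without IR 3, beside 0.16. It was 0.16 without Sham 2 and 0.20 without Sham 3, beside 0.09 and -0.04. In I-post C against IR it was 0.03 without I-post C 2, with 20 of 36 above 0, beside -0.02 for the longest bin, and 0.34 without IR 3, beside -0.05. It was 0.22 without I-post C 3, beside 0.04 for the longest bin, and 0.09 without IR 1, beside 0.10. Without IR 2 it was 0.08. In I-post C against Sham the median ran between 0.28 and 0.53 when 1 library was left out in turn. Of the 37 log2FC values of members followed through the alternatives, 29 changed by more than 1.5 times or turned in sign when 1 library was left out. The part of length and of single libraries in the medians was not tested further.

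**Figure D3:**
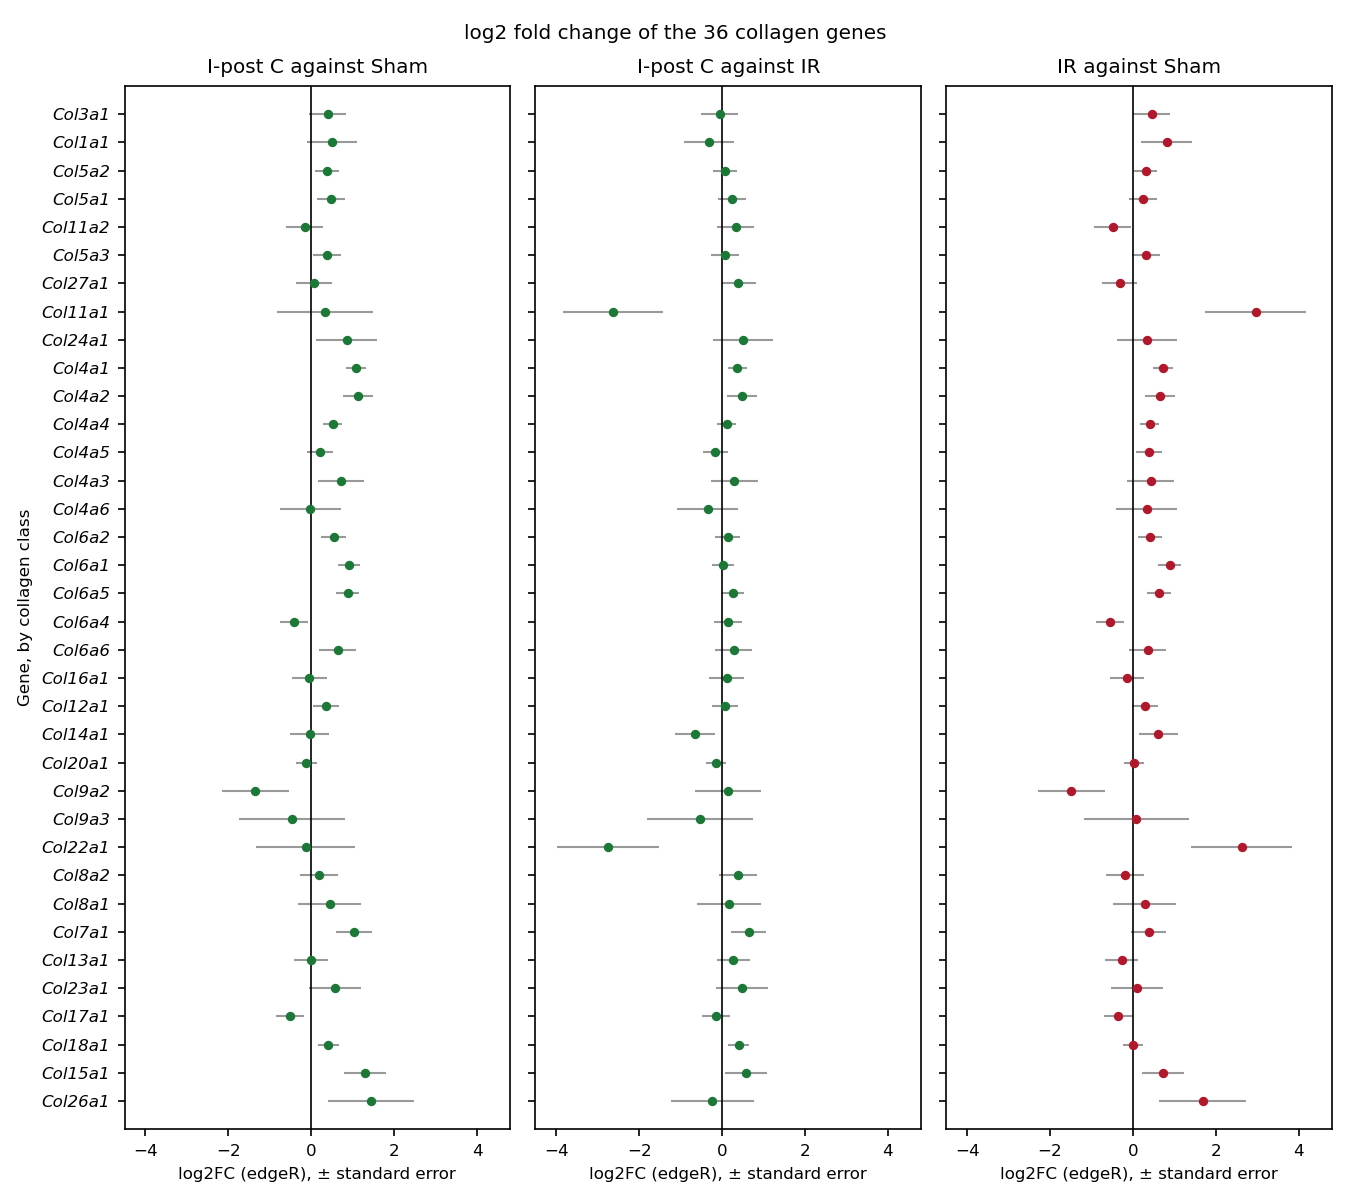
Points give the edgeR log2FC of each of the 36 collagen genes and bars its standard error, for I-post C set against Sham, then against IR, and for IR set against Sham. Positive values are higher in the group named first. Col11a1 lies at 2.96 in IR against Sham and -2.63 in I-post C against IR, with standard errors of 1.22 and 1.20.

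The 6 type IV genes summed to 443, 468 and 539 FPKM in I-post C libraries, 316, 371 and 377 FPKM in IR libraries and 369.8, 186 and 187 FPKM in Sham libraries. The I-post C libraries were above all others, which among the classes held also for Col7a1, and Sham 1 was close to the IR libraries while Sham 2 and Sham 3 were far below them. The median log2FC of the 6 was 0.62 in I-post C against Sham, with 5 above 0, 0.20 in I-post C against IR, with 4 above 0, and 0.42 in IR against Sham, with 6 above 0.

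Col4a1 (ENSRNOG00000016281, chromosome 16, 83522162 to 83632153 in rn6, plus strand) and Col4a2 (ENSRNOG00000023972, chromosome 16, 83387364 to 83438561, minus strand) encode the chains of the basement membrane found in nearly every tissue. Col4a1 had 216, 254 and 293 FPKM in I-post C libraries, 157, 182 and 199.9 FPKM in IR libraries and 157, 87.5 and 102 FPKM in Sham libraries. In FPKM no I-post C library overlapped with another group, and IR 1 and Sham 1 were level. Separation was not examined on the scale of the edgeR test, which sets I-post C lower against IR than FPKM does. The means were 254 ± 38.1 FPKM in I-post C, 179.6 ± 21.7 FPKM in IR and 116 ± 36.9 FPKM in Sham (SD, n = 3 each). In I-post C against Sham the edgeR log2FC of Col4a1 was 1.09 (standard error 0.24, adjusted p = 0.345), which did not pass. DESeq2 gave a log2FC of 1.08 with an adjusted p of 0.00553 on all 9 libraries and 0.0163 on the 2 groups, so with DESeq2 Col4a1 rose in I-post C against Sham. Over the edgeR fits that left out 1 library in turn the log2FC ran between 0.96 and 1.26, and with the length trend removed it was 0.88. In I-post C against IR it was 0.37 (standard error 0.23, adjusted p = 1) and in IR against Sham 0.72 (standard error 0.23, adjusted p = 0.316), neither past the threshold.

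Col4a2 had 121, 117 and 148 FPKM in I-post C libraries, 67.9, 94.4 and 90.7 FPKM in IR libraries and 99.7, 27.4 and 47.1 FPKM in Sham libraries. As for Col4a1, I-post C stood above both other groups, but Sham 1 was above all IR libraries and Sham 2 was the lowest of the 9 libraries. The edgeR log2FC of Col4a2 was 1.13 (standard error 0.36, adjusted p = 0.718) in I-post C against Sham, 0.48 (0.36, adjusted p = 1) in I-post C against IR and 0.66 (0.36, adjusted p = 0.53) in IR against Sham. Without Sham 1 it was 1.62 in I-post C against Sham and without Sham 2 it was 0.82. The ratio of Col4a1 to Col4a2 FPKM had a median of 2.17 and lay between 1.58 in Sham 1 and 3.20 in Sham 2.

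**Figure D4:**
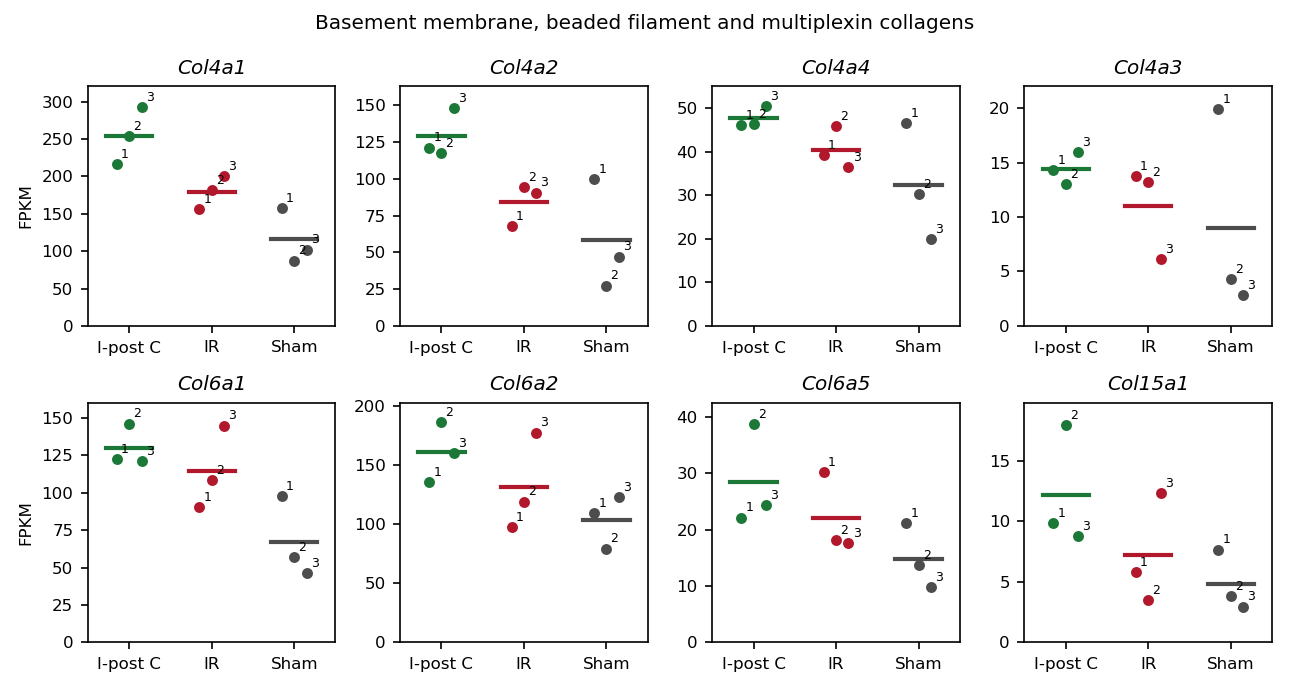
Each point is the FPKM of 1 library, labelled with its replicate number, and each bar the group mean, for 4 type IV genes, 3 type VI genes and Col15a1. Col4a1 and Col4a2 of the 3 I-post C libraries (216 to 293 and 117 to 148 FPKM) lie above every IR and Sham library, while for Col4a3 Sham 1 (19.9 FPKM) is the highest of all.

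Col4a3, Col4a4 and Col4a5 encode the network of the alveolar and glomerular basement membrane, the one affected in Alport syndrome. Col4a4 had 46.2, 46.4 and 50.5 FPKM in I-post C libraries, 39.2, 45.8 and 36.5 FPKM in IR libraries and 46.7, 30.4 and 19.9 FPKM in Sham libraries. Its I-post C values were close together and above all IR values, while Sham 1 lay among them. Its log2FC in I-post C against Sham was 0.52 (standard error 0.23, edgeR adjusted p = 0.766). Col4a3, beside it on chromosome 9, had 14.3, 13.0 and 16.0 FPKM in I-post C libraries, 13.8, 13.2 and 6.10 FPKM in IR libraries and 19.9, 4.29 and 2.80 FPKM in Sham libraries, so the groups overlapped from end to end. The log2FC of Col4a3 in I-post C against Sham was 0.72 with a standard error of 0.57 (edgeR adjusted p = 0.833), and it was 1.87 without Sham 1, 0.42 without Sham 2 and 0.32 without Sham 3. The ratio of Col4a4 to Col4a3 was between 2.34 in Sham 1 and 7.12 in Sham 3, with a median of 3.46, so the members of this pair did not keep a fixed ratio.

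Col4a5 and Col4a6 lie head to head on the X chromosome. Col4a5 had 40.9, 33.8 and 30.5 FPKM in I-post C libraries, 33.8, 32.3 and 41.0 FPKM in IR libraries and 40.0, 33.1 and 14.4 FPKM in Sham libraries. Apart from Sham 3 these levels overlapped fully. Col4a6, a chain of smooth muscle and bronchial basement membranes, had 4.41, 3.27 and 1.48 FPKM in I-post C libraries, 4.81, 2.92 and 3.02 FPKM in IR libraries and 6.06, 2.91 and 0.321 FPKM in Sham libraries. Sham 1 was the highest and Sham 3 the lowest of all, and the ratio of Col4a5 to Col4a6 reached 45.0 in Sham 3, beside a median of 11.1.

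Markers of endothelial and alveolar type 1 cells, which make type IV collagen, were summed in the same libraries. Endothelial markers summed to 353 to 375 FPKM in I-post C, 275 to 337 FPKM in IR and 270.4 to 421 FPKM in Sham, with 4 of 5 markers in the table. The I-post C sums were thus all above the IR sums, as for type IV collagen, while the Sham sums spanned both. Cdh5, the cadherin of endothelial junctions, had 175, 189 and 176 FPKM in I-post C libraries, 141, 126 and 126 FPKM in IR libraries and 189, 108 and 115 FPKM in Sham libraries, and Tie1, an endothelial receptor, was also above IR in every I-post C library. Vwf ran the other way, at 63.1 to 71.3 FPKM in I-post C, 72.6 to 92.0 FPKM in IR and 86.8 to 101 FPKM in Sham. Kdr overlapped, at 42.3 to 65.0 FPKM in I-post C, 28.8 to 56.1 FPKM in IR and 34.4 to 74.6 FPKM in Sham. Alveolar type 1 markers summed to 2265 to 2543 FPKM in I-post C, 1979 to 2805 FPKM in IR and 2236 to 4440.4 FPKM in Sham, with 5 of 5 in the table. Their part in the type IV differences was not tested.

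The beaded filament class, led by type VI collagen, came next. Type VI collagen lies between basement membrane and fibrils and binds both. Its 5 members here summed to 293, 381 and 315 FPKM in I-post C libraries, 229, 252 and 349 FPKM in IR libraries and 244, 157 and 188 FPKM in Sham libraries, and their median log2FC was 0.64 in I-post C against Sham, 0.15 in I-post C against IR and 0.41 in IR against Sham. Col6a1 (chromosome 20, 12658065 to 12675561 in rn6) had 122, 146 and 121 FPKM in I-post C libraries, 90.4, 108 and 145 FPKM in IR libraries and 97.5, 56.9 and 46.5 FPKM in Sham libraries. I-post C was above Sham throughout, and IR overlapped with both. Its edgeR log2FC was 0.91 (standard error 0.27, adjusted p = 0.686) in I-post C against Sham and 0.88 (standard error 0.27, adjusted p = 0.306) in IR against Sham.

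Col6a2 (chromosome 20, 12773427 to 12801180 in rn6), whose product joins that of Col6a1 in the same molecule, had 136, 186 and 160.2 FPKM in I-post C libraries, 97.4, 119 and 177 FPKM in IR libraries and 109, 79.4 and 123 FPKM in Sham libraries. I-post C was again above Sham, with a log2FC of 0.54 (standard error 0.30, edgeR adjusted p = 0.788). The ratio of Col6a2 to Col6a1 was between 1.08 in IR 1 and 2.64 in Sham 3. Col6a5 had 22.1, 38.7 and 24.3 FPKM in I-post C libraries, 30.2, 18.2 and 17.6 FPKM in IR libraries and 21.2, 13.6 and 9.77 FPKM in Sham libraries. Its I-post C values only just cleared Sham 1, and its log2FC was 0.88 (standard error 0.28, edgeR adjusted p = 0.718) in I-post C against Sham and 0.63 (standard error 0.28, adjusted p = 0.435) in IR against Sham. Col6a4 ran the other way in IR against Sham, with 5.28, 3.80 and 5.70 FPKM in IR libraries and 11.3, 4.06 and 7.82 FPKM in Sham libraries and a log2FC of -0.56 (standard error 0.34, edgeR adjusted p = 0.573). Col6a6 averaged 4.75, 3.62 and 3.02 FPKM in I-post C, IR and Sham.

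Among the fibrillar collagens the IR group was split by 1 library. Col3a1 (ENSRNOG00000003357, chromosome 9, 52023295 to 52059217 in rn6) had 560.0, 588 and 419 FPKM in I-post C libraries, 291, 409 and 740.4 FPKM in IR libraries and 333, 567 and 216 FPKM in Sham libraries. Col1a1 (chromosome 10, 82745801 to 82762789), a chain of type I collagen, the main collagen of scar, had 75.6, 102 and 58.5 FPKM in I-post C libraries, 36.5, 35.4 and 181 FPKM in IR libraries and 62.5, 54.2 and 41.8 FPKM in Sham libraries. IR 3 was the highest of the 9 libraries for both genes, and for Col1a1 the other IR libraries were the lowest. The ratio of Col1a1 to Col3a1 was 0.0867 in IR 2, the lowest, and 0.244 in IR 3, the highest. The edgeR log2FC of Col1a1 was 0.50 (standard error 0.61, adjusted p = 0.898) in I-post C against Sham, -0.31 (0.61, adjusted p = 1) in I-post C against IR and 0.82 (0.61, adjusted p = 0.662) in IR against Sham. Without IR 3 the Col1a1 values were 1.07 in I-post C against IR and -0.57 in IR against Sham, so the sign of both turned. For Col3a1 the log2FC was 0.39 (standard error 0.45, adjusted p = 0.893) in I-post C against Sham and 0.45 (0.45, adjusted p = 0.76) in IR against Sham, and the IR value was -0.12 without IR 3. The I-post C against Sham value was 0.91 without Sham 2, 0.25 without Sham 1 and 0.15 without Sham 3.

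Col11a1, a minor fibrillar chain best known from cartilage, had 0.183, 0.0958 and 0.0688 FPKM in I-post C libraries, 0.120, 0.0325 and 1.69 FPKM in IR libraries and 0.0921, 0.102 and 0.0659 FPKM in Sham libraries. Outside IR 3 it was near the floor of the table. Its edgeR log2FC was 2.96 (standard error 1.22, adjusted p = 0.401) in IR against Sham and -2.63 (standard error 1.20, adjusted p = 1) in I-post C against IR. Without IR 3 these were -0.23 and 0.56. Col22a1, a FACIT chain known from the junction of muscle and tendon, had 0.0939, 0.0544 and 0 FPKM in I-post C libraries, 0.177, 0.0618 and 0.634 FPKM in IR libraries and 0.0652, 0.0420 and 0.0462 FPKM in Sham libraries. Again IR 3 was the highest, with IR 1 next. The log2FC of Col22a1 was 2.62 (standard error 1.22, edgeR adjusted p = 0.45) in IR against Sham and -2.76 (standard error 1.23, edgeR adjusted p = 1) in I-post C against IR, and without IR 3 it was 1.20 and -1.33. On the log2(FPKM + 0.5) scale of limma, which damps changes of low genes, Col22a1 was at 0.46 in IR against Sham and -0.46 in I-post C against IR.

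IR 3 also held skeletal muscle transcripts. Acta1, the actin of skeletal muscle, was at 5.50 to 7.44 FPKM in I-post C libraries, at 1558 FPKM in IR 3 beside 8.17 and 4.73 FPKM in IR 1 and 2, and at 1.52 to 34.8 FPKM in Sham libraries. The 6 muscle markers of 8 that are in the table summed to 19.2 to 29.3 FPKM in I-post C, 20.4 to 4080.4 FPKM in IR and 10.7 to 72.4 FPKM in Sham. Pericyte and smooth muscle markers summed to 224 to 312 FPKM in I-post C, 172 to 668 FPKM in IR and 248 to 388 FPKM in Sham, with the highest value again in IR 3. Of these markers Acta2, Myh11, Cnn1 and Des were highest in IR 3. Pdgfrb and Cspg4 were not, at 15.8 and 4.10 FPKM in IR 3, below every I-post C library. Fibroblast markers summed to 380.2 to 407 FPKM in I-post C, 288 to 348 FPKM in IR and 260.3 to 408 FPKM in Sham. Among them Lum and Mfap5 were highest in IR 3, at 19.0 and 42.1 FPKM, while Pdgfra was lowest there at 9.86 FPKM. Tcf21, Dpt and Fbln1 were not highest in IR 3. Cartilage markers summed to 1.20 to 4.43 FPKM in I-post C, 1.04 to 4.39 FPKM in IR and 0.641 to 5.91 FPKM in Sham. Tendon and bone markers summed to 60.2 to 65.6 FPKM in I-post C, 50.5 to 61.9 FPKM in IR and 55.9 to 104 FPKM in Sham, most of it from Alpl, which other tissues express as well. Among them Tnmd, the tenomodulin of tendon, was at 0.139 to 0.218 FPKM in I-post C libraries, at 6.39 FPKM in IR 3 beside 0.148 and 0.299 FPKM in IR 1 and 2, and at 0.161 to 0.288 FPKM in Sham libraries. Ibsp, a bone sialoprotein, was highest in IR 3 at 1.31 FPKM, and so was the cartilage collagen Col2a1, below the minimum of the members, at 0.215 FPKM. The cartilage markers in the table were not highest in IR 3. Ucma had 3.05 FPKM there beside 4.28 in Sham 1, Sox9 had 0.463 beside 0.888 in Sham 1, and Acan and Matn1 were at 0. Of the cartilage collagens, Col9a3 was at 0 FPKM in IR 3 and Col9a2 at 0.213 FPKM. The other tendon and bone markers were not highest in IR 3. Scx had 6.41 FPKM in Sham 3, its highest, beside 0.665 FPKM in IR 3. Bglap was highest in I-post C 2 (0.797 FPKM, 0.720 in IR 3) and Alpl in Sham 3 (96.7 FPKM, 52.8 in IR 3). The part of these cells in the fibrillar values was not tested.

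**Figure D5:**
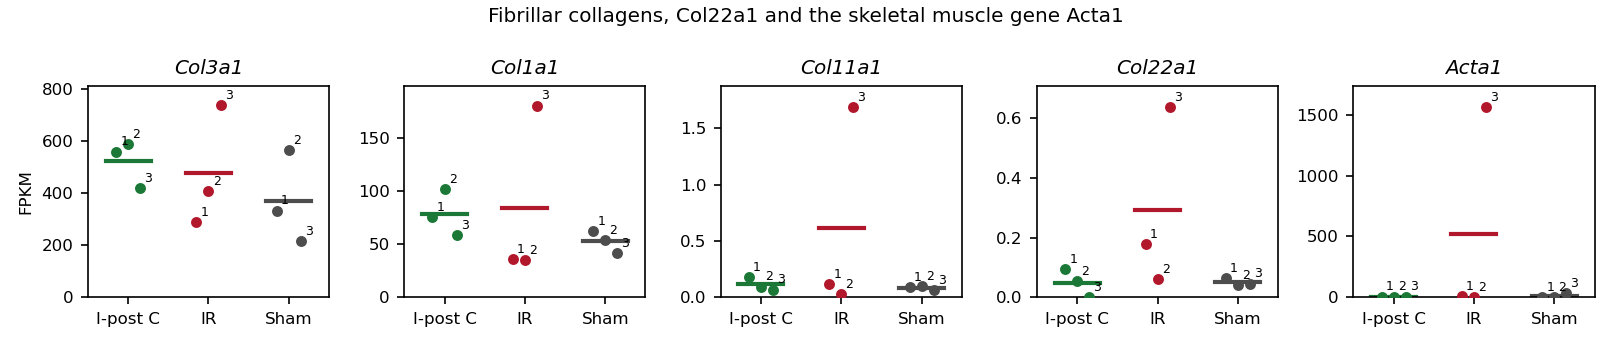
Each point is the FPKM of 1 library, labelled with its replicate number, and each bar the group mean, for Col3a1, Col1a1, Col11a1, Col22a1 and the skeletal muscle gene Acta1. IR 3 is the highest library in every panel, at 740.4, 181, 1.69, 0.634 and 1558 FPKM.

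The other fibrillar genes were not called in any comparison. Col5a2, whose product joins that of Col5a1 in type V collagen, which starts and limits fibrils, had 71.8, 72.9 and 54.8 FPKM in I-post C libraries, 62.0, 50.7 and 60.6 FPKM in IR libraries and 75.9, 47.7 and 26.1 FPKM in Sham libraries. Sham 1 was the highest and Sham 3 the lowest of all. Col5a1 averaged 8.45 ± 1.32 FPKM in I-post C, 6.46 ± 1.19 FPKM in IR and 5.95 ± 3.63 FPKM in Sham (SD, n = 3 each). Col5a3, Col27a1 and Col11a2 lay between 0.618 and 3.26 FPKM in all libraries. Col11a2 was above IR in every I-post C library, at 1.81, 2.52 and 2.01 FPKM beside 1.08, 1.77 and 1.69 FPKM in IR libraries, and had a log2FC of -0.49 (standard error 0.45, edgeR adjusted p = 0.733) in IR against Sham, which was 0.01 without Sham 3. Col24a1 had 0.300, 0.273 and 0.344 FPKM in I-post C libraries and 0.124, 0.157 and 0.288 FPKM in IR libraries, with a log2FC of 0.51 (standard error 0.73, edgeR adjusted p = 1) in I-post C against IR that was 1.03 without IR 3 and 0.25 without IR 1.

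The multiplexins are basement membrane proteoglycans whose ends can be cut to endostatin-like fragments. Col15a1 had 9.85, 17.9 and 8.79 FPKM in I-post C libraries, 5.80, 3.46 and 12.3 FPKM in IR libraries and 7.65, 3.82 and 2.96 FPKM in Sham libraries. I-post C was above Sham throughout, with I-post C 2 standing apart, and IR 3 lay among the I-post C values. Its edgeR log2FC was 1.30 (standard error 0.51, adjusted p = 0.747) in I-post C against Sham and 0.58 (standard error 0.50, adjusted p = 1) in I-post C against IR, and 0.96 and 0.21 without I-post C 2. Without IR 3, Col15a1 was at 1.34 in I-post C against IR. Col18a1, the source of endostatin, had 12.8, 19.6 and 12.8 FPKM in I-post C libraries, 8.47, 12.0 and 10.4 FPKM in IR libraries and 13.3, 7.60 and 11.5 FPKM in Sham libraries. It was above IR in every I-post C library, with a log2FC of 0.41 (standard error 0.25, edgeR adjusted p = 1) that was 0.20 without I-post C 2 and 0.24 without IR 1.

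Col7a1, the anchoring fibril that ties the epithelial basement membrane to the stroma, had 3.96, 5.71 and 6.18 FPKM in I-post C libraries, 2.41, 3.74 and 3.05 FPKM in IR libraries and 3.32, 0.923 and 3.19 FPKM in Sham libraries. I-post C was above both other groups, and IR and Sham overlapped. The edgeR log2FC of Col7a1 was 1.03 (standard error 0.43, adjusted p = 0.758) in I-post C against Sham and 0.65 (standard error 0.42, adjusted p = 1) in I-post C against IR.

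Transmembrane collagens sit in the cell membrane. Col13a1 was the most abundant, with 55.9, 50.7 and 35.7 FPKM in I-post C libraries, 27.5, 42.9 and 36.2 FPKM in IR libraries and 43.1, 20.5 and 69.2 FPKM in Sham libraries, so the Sham libraries alone spanned all the rest. Col17a1, of the hemidesmosome of basal epithelial cells, had 1.56, 1.9 and 1.50 FPKM in I-post C libraries and 3.19, 2.21 and 1.46 FPKM in Sham libraries, a log2FC of -0.51 (standard error 0.34, edgeR adjusted p = 0.804). Col23a1 lay between 0.687 and 5.80 FPKM, with both ends in Sham 2 and I-post C 1.

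The FACIT genes, which coat fibrils, had a median log2FC of -0.11 in I-post C against Sham, -0.14 in I-post C against IR and 0.08 in IR against Sham. Col16a1 averaged 18.7 ± 4.55 FPKM in I-post C, 15.7 ± 1.45 FPKM in IR and 18.3 ± 10.3 FPKM in Sham, and Col12a1 averaged 11.2 ± 2.89 FPKM in I-post C, 9.82 ± 1.70 FPKM in IR and 8.56 ± 5.23 FPKM in Sham (SD, n = 3 each). Col20a1 was even, between 2.18 and 3.02 FPKM in all 9 libraries. Col14a1 had 6.89, 6.59 and 2.74 FPKM in I-post C libraries and 3.89, 9.35 and 9.41 FPKM in IR libraries, with a log2FC of -0.65 (standard error 0.48, edgeR adjusted p = 1) that was -0.99 without IR 1, -0.35 without I-post C 3 and -0.38 without IR 3. Col9a2, a cartilage FACIT chain, had 0.167, 0.941 and 0.333 FPKM in I-post C libraries, 0.606, 0.398 and 0.213 FPKM in IR libraries and 1.24, 0.239 and 1.94 FPKM in Sham libraries. Sham 1 and Sham 3 were the highest and Sham 2 was among the lowest. Its edgeR log2FC was -1.35 (standard error 0.81, adjusted p = 0.788) in I-post C against Sham and -1.49 (standard error 0.81, adjusted p = 0.525) in IR against Sham, and -0.58 and -0.72 without Sham 3.

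The remaining members were at the foot of the range. Col8a1 and Col8a2, network chains of vessel walls, lay between 0.156 and 3.10 FPKM with ratios of Col8a2 to Col8a1 between 0.857 and 9.86. Col9a3 was between 0 and 0.402 FPKM, with a log2FC of -0.46 (standard error 1.28, edgeR adjusted p = 0.966) in I-post C against Sham that was 0.12 without Sham 3. Col26a1 had 0.0687, 0.228 and 0.146 FPKM in I-post C libraries, 0.214, 0.166 and 0.101 FPKM in IR libraries and 0.110, 0 and 0.0452 FPKM in Sham libraries. Its log2FC was 1.45 (standard error 1.04, edgeR adjusted p = 0.82) in I-post C against Sham and 1.68 (standard error 1.05, edgeR adjusted p = 0.589) in IR against Sham, and without Sham 1 these were 2.44 and 2.67, and without Sham 2, where it is listed at 0, 0.88 and 1.11. On the log2(FPKM + 0.5) scale of limma they were 0.23 and 0.26. Just above the minimum of 0.1 FPKM stood Col26a1 at 0.120, Col22a1 at 0.131 and Col9a3 at 0.154 FPKM, and just below it Col10a1 at 0.0470 and Col28a1 at 0.0452 FPKM, followed by the cartilage collagens Col2a1 and Col9a1 and by Col19a1. Col1a2, Col6a3, Col21a1 and Col25a1 had no entry under these names and were not analysed here.

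Of 62 genes that modify, cut, bind or anchor collagen, 55 were tested and 0 were called by edgeR in any of the 3 comparisons. DESeq2 called Timp1 and Gp6 in IR against Sham on all 9 libraries, and also Mmp8 and Mmp9 on the 2 groups alone, where 2.12% and 1.86% of all genes were called in these fits. It called Gp6 in I-post C against IR in both fits, beside 0.0945% and 0.227% of all genes. On the 2 groups it called Mmp8 in I-post C against Sham, beside 0.629% of all genes. The edgeR log2FC in IR against Sham was 2.34 (adjusted p = 0.283) for Timp1, 3.58 (adjusted p = 0.262) for Mmp8 and 2.18 (adjusted p = 0.361) for Mmp9. edgeR's unadjusted p was under 0.05 for 8 of the 55 in I-post C against Sham, all higher, beside 3.38% of all genes higher and 3.1% lower. In I-post C against IR it was under 0.05 for 2, both lower, beside 1.08% higher and 1.8% lower. In IR against Sham it was under 0.05 for 9, all higher, beside 5.69% higher and 5.85% lower. The median log2FC of the 55 was 0.28 in I-post C against Sham, -0.00 in I-post C against IR and 0.22 in IR against Sham.

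Gp6, the collagen receptor of platelets, had 0.484, 0.258 and 0.417 FPKM in I-post C libraries, 1.39, 1.42 and 1.60 FPKM in IR libraries and 0.260, 0.361 and 0.164 FPKM in Sham libraries. All 3 IR libraries were well above the rest. Its edgeR log2FC was -2.04 (standard error 0.46, adjusted p = 1) in I-post C against IR and 2.53 (standard error 0.46, adjusted p = 0.0908) in IR against Sham, neither past the threshold. Timp1, an inhibitor of matrix metalloproteinases, had 152, 89.2 and 299.9 FPKM in I-post C libraries, 165, 639 and 615 FPKM in IR libraries and 48.3, 155 and 84.4 FPKM in Sham libraries. IR 2 and IR 3 were high and IR 1 was not. Timp3, another inhibitor of these enzymes, had 221, 132 and 352 FPKM in I-post C libraries, 281, 362 and 149 FPKM in IR libraries and 196, 156 and 92.1 FPKM in Sham libraries. These overlapped, with a log2FC of 0.88 (standard error 0.41, edgeR adjusted p = 0.446) in IR against Sham. Mmp8, the collagenase of neutrophils, had 10.1, 6.77 and 71.7 FPKM in I-post C libraries, 15.9, 64.0 and 15.7 FPKM in IR libraries and 2.53, 3.90 and 1.72 FPKM in Sham libraries, and the gelatinase Mmp9 was likewise highest in I-post C 3 (5.54 FPKM) and IR 2 (5.69 FPKM). Neutrophil markers, Mmp8 among them, summed to 225, 159 and 1235 FPKM in I-post C libraries, 280.1, 793 and 355 FPKM in IR libraries and 82.9, 138 and 106 FPKM in Sham libraries, with the same libraries highest.

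The 16 genes that hydroxylate, glycosylate and fold collagen chains had a median log2FC of -0.04 in I-post C against Sham, 0.08 in I-post C against IR and -0.12 in IR against Sham. P4hb, the shared subunit of prolyl hydroxylase, averaged 231 ± 13.2 FPKM in I-post C, 225 ± 4.89 FPKM in IR and 223 ± 18.9 FPKM in Sham, and Ppib averaged 206 ± 7.59, 203 ± 26.3 and 246 ± 73.1 FPKM (SD, n = 3 each). Bmp1, which cuts the end of procollagen, averaged 98.4 ± 10.4 FPKM in I-post C, 119 ± 27.3 FPKM in IR and 71.8 ± 16.5 FPKM in Sham, and its helper Pcolce 42.7 ± 10.8, 49.6 ± 18.4 and 49.9 ± 12.0 FPKM. Sparc, a collagen-binding matrix protein and the most abundant gene of the list, averaged 2331 ± 83.5 FPKM in I-post C, 2091 ± 558 FPKM in IR and 1805 ± 457 FPKM in Sham. Bgn, a small proteoglycan, averaged 275 ± 24.0, 258 ± 40.2 and 224 ± 66.8 FPKM in the same groups. Of the receptors, Itgb1 averaged 259 ± 28.3, 234 ± 29.5 and 205 ± 53.4 FPKM and Ddr1 8.96 ± 1.98, 9.72 ± 1.67 and 9.43 ± 0.962 FPKM in I-post C, IR and Sham.

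Partners of type IV collagen in the basement membrane are set beside Col4a1 and Col4a2, which in FPKM were higher in I-post C than in both other groups. These partners were picked after their values were seen. Nid1, which links laminin to type IV collagen, had 29.3, 34.1 and 30.6 FPKM in I-post C libraries, 20.0, 15.5 and 27.0 FPKM in IR libraries and 23.4, 17.0 and 9.16 FPKM in Sham libraries. Lamb1, a laminin chain, had 27.0, 28.5 and 24.4 FPKM in I-post C libraries, 20.3, 20.7 and 22.8 FPKM in IR libraries and 18.6, 15.4 and 17.1 FPKM in Sham libraries. For both, as for Col4a1 and Col4a2, every I-post C library was above every IR and Sham library, and the same held for Nid2, at 6.85 to 8.16 FPKM in I-post C, 3.93 to 6.15 FPKM in IR and 3.29 to 6.10 FPKM in Sham. It did not hold for the laminin chains Lamb2 and Lamc1. Over all genes, 10.3% were above IR and 5.62% above Sham in every I-post C library. The share above both groups was not counted. Lamb2 was at 81.8 to 85.2 FPKM in I-post C, 58.6 to 84.0 FPKM in IR and 46.1 to 91.2 FPKM in Sham, with Sham 3 and Sham 1 the highest. Lamc1 was at 18.1 to 19.0 FPKM in I-post C, 15.6 to 21.7 FPKM in IR and 6.71 to 19.7 FPKM in Sham, with IR 1 and Sham 1 the highest. The edgeR log2FC in I-post C against Sham was 0.88 (standard error 0.31, adjusted p = 0.725) for Nid1 and 0.56 (standard error 0.16, adjusted p = 0.665) for Lamb1. Lox, which cross-links collagen and elastin, had 44.6, 44.4 and 106 FPKM in I-post C libraries, 39.6, 60.4 and 46.8 FPKM in IR libraries and 32.2, 31.5 and 16.8 FPKM in Sham libraries. Every I-post C and every IR library was above every Sham library, with a log2FC of 1.23 (standard error 0.39, edgeR adjusted p = 0.718) in I-post C against Sham and 0.93 (standard error 0.39, edgeR adjusted p = 0.408) in IR against Sham. Of all genes, 5.62% lay above Sham in every I-post C library and 5.65% in every IR library.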

How the data were processed

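Lung mRNA was sequenced as paired reads. Per the submitters' processing notes, the authors used Cutadapt 1.9 to trim reads, HISAT2 2.2.1 to map them to rn6 and StringTie 2.1.6 to assemble transcripts. The FPKM values and the whole-number counts per gene and library were deposited by the authors. The sources used here do not state how the counts were made or whether strand was used. Total counts ran from 45110590 to 51214941 per library, and 0 columns of values were left unused. A count may not be 1 fragment, so no counting intervals are given, and precision rests on the spread between libraries (common biological coefficient of variation 0.454).

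Counts of the 18250 genes with a mean of at least 0.1 FPKM were tested with edgeR 4.0.16 (quasi-likelihood, TMM, 9 libraries, group as the only term, two-sided) in R 4.3.3, with Benjamini-Hochberg adjustment over all of them. As in the study, a gene was called when its adjusted p was below 0.05 and its log2FC was 1 or more in size. DESeq2 1.42.0, limma 3.58.1 on log2(FPKM + 0.5), other scalings and filters, a replicate block and leaving out libraries were alternatives. A length trend was taken out of each library in a fit added after seeing the data. Where an entry shares a gene name (945 entries), the most abundant one was used for the lists.

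The collagen genes and all lists were chosen with earlier results of these data known. Named members are the 10 most abundant, those called by any fit, the 3 highest and 3 lowest by log2FC in each comparison, and both chains of partner pairs. Of the collagen processing list, genes called and the 2 most abundant per group of functions were named. Other genes were named after their values were seen. Promoter sequences are from RefSeq, and their coordinates are in GRCr8, unlike the rn6 coordinates of the table.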

Additional observations from a re-analysis of the deposited data

How the results depend on the processing

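Of 37 named log2FC values under up to 23 alternatives, 819 of 843 kept their direction and their side of the threshold, 22 reversed and 2 passed. Under DESeq2 on all 9 libraries and on the 2 groups alone, 1 and 1 collagen genes were called in I-post C against Sham (Col4a1, log2FC 1.08 and 1.08), and 2 and 4 collagen processing genes in IR against Sham and 1 and 1 in I-post C against IR, with 1 on the 2 groups in I-post C against Sham. Leaving out each library gave 0 to 0 calls in every comparison for both lists.

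Leaving out IR 3, or IR 3 and Sham 3 together, or IR 3 with the length trend removed, reversed Col3a1 in IR against Sham (-0.12, -0.37 and -0.30), Col1a1 in IR against Sham (-0.57, -0.67 and -0.80) and in I-post C against IR (1.07, 1.08 and 1.09), and Col11a1 in IR against Sham (-0.23, -0.36 and -0.59) and in I-post C against IR (0.56, 0.57 and 0.66). Col1a1 in I-post C against IR also reversed with limma at pseudocounts of 0.5, 0.1 and 1 (0.31, 0.32 and 0.31) and with the replicate block (0.038). Without Sham 3, and without Sham 3 and IR 3, Col9a3 in I-post C against Sham was 0.12 and 0.13, and without Sham 3 Col11a2 in IR against Sham was 0.013. Leaving out 1 library in turn gave ranges of -0.12 to 0.96 for Col3a1, -0.57 to 1.21 for Col1a1, -0.23 to 3.52 for Col11a1 and -0.86 to 0.013 for Col11a2 in IR against Sham, of -0.71 to 1.07 for Col1a1 and -3.19 to 0.56 for Col11a1 in I-post C against IR, and of -1.18 to 0.12 for Col9a3 in I-post C against Sham. The member median in IR against Sham was 0.02 without Sham 3 and IR 3 and -0.07 with the length trend and IR 3 left out. The causes were not tested. With limma at a pseudocount of 0.1, the all-gene median for I-post C against IR was 0.12.

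Deviations of libraries with the same replicate number had correlations between -0.15 and 0.36. Correlations between different numbers were not computed, so these values cannot show whether the numbers pair the libraries. With the number as a replicate block, 0 members were called in each comparison, and calls over all genes in IR against Sham were 0, against 25 without the block. An adjusted p over the threshold does not show that levels were equal.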
